A study of Mus musculus with 16 samples.

Results

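Wwox, Fut10, 2810002D19Rik, 6720456H20Rik, Cwc22, Gm6277 and Gm10635 are 7 of the 23284 genes measured in the prefrontal cortex of mice with altered β-catenin. They were chosen because their levels differ sharply between the mouse lines in these same libraries although they lie far from the floxed genes, so their levels and changes are given as a description without a test. All 7 were found by name, and all 7 passed a filter on low values (a mean of 0.5 FPKM or more), as 13978 genes did. FPKM counts fragments per length of transcript and per total of mapped fragments, so that levels can be compared between genes and libraries.

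The libraries came from 4 APC cKO mice (APC fl/fl), 4 β-cat cOE mice (ctnnb1 fl(ex3)/+), 4 APC/β-cat cKO mice (APC fl/fl/ctnnb1 fl/fl) and 4 Control mice. Loss of APC or removal of exon 3 of ctnnb1 stabilises β-catenin, and the double line removes APC and β-catenin together. The same CamKIIα-Cre-93 driver was carried by all 3 mutant lines, and it is active predominantly in forebrain excitatory neurons, whereas Controls were littermates without Cre taken from the different lines and pooled. Mice of both sexes were used at 2 to 3 months of age, and polyadenylated RNA was taken from the whole dissected tissue, in which fewer cells of a type and less RNA per cell cannot be told apart.

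WWOX is an oxidoreductase with WW domains, short modules that bind proline-rich motifs in partners such as ERBB4, JUN, p73 and Dishevelled. Its gene is very long, spans a common fragile site and acts as a tumour suppressor, and loss of both copies in humans causes an early epileptic encephalopathy. FUT10 belongs to the fucosyltransferases, which add the sugar fucose to glycans and proteins. CWC22 is a splicing factor that brings the helicase EIF4A3 to the spliceosome for the exon junction complex, and its gene lies in a part of mouse chromosome 2 known to vary in copy number between mice. Copy number was not measured here. 6720456H20Rik is an older name of Tmem260, a membrane protein of the endoplasmic reticulum. The annotation gives 2810002D19Rik as a processed transcript, Gm6277 as an antisense RNA and Gm10635 as a long intergenic RNA.

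Without fragment counts the depth of a library could not be read. Between 5726 and 6649 genes were listed at 0 per library, and the Pearson r of log values between libraries was 0.985 to 0.994. Apc was at 40.8 to 50.1 FPKM in Control and 38.8 to 49.5 in β-cat cOE, against 7.85 to 17.1 in APC cKO and 6.80 to 12.2 in APC/β-cat cKO. The gene level of Ctnnb1 was 155 to 166 FPKM in Control and 151 to 157 in APC/β-cat cKO, a value that does not show which exons a transcript holds. Xist and Y-linked genes marked 2 libraries as female, Control replicate 1 and APC cKO replicate 1. In 8 lists of cell type markers, limma called 0 genes in any comparison, beside 0.501% of all genes tested called in at least 1. The number with an unadjusted p under 0.05 in at least 1 comparison ran from 0 of 5 striatal neuron markers to 5 of 5 oligodendrocyte markers. Of all genes tested, 33.4% did so. Excitatory neuron markers summed to 1067 to 1376 FPKM over the 16 libraries, choroid plexus and ependyma markers to 1.64 to 14.7, with Ccdc153 at 0 in at least 1 library. Striatal neuron markers summed to 50.5 to 311 FPKM over the 16 libraries, and to 63.9 to 311 within APC cKO alone. The source of this spread was not tested.

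In the mm10 genome, Wwox lies at chr8:114439652-115352712 and Fut10 at chr8:31187332-31261483, 83.2 Mb apart. Cwc22 lies at chr2:77895653-77946353 and 2810002D19Rik at chr2:94406707-94411680, 16.5 Mb apart. GENCODE M21 places 3 antisense genes, Gm16116, Gm16117 and Gm16118, on the strand opposite Wwox. 6720456H20Rik lies at chr14:48446352-48515159, with neither floxed gene on its chromosome.

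β-catenin drives transcription by binding TCF/LEF factors on DNA, so the RefSeq sequence (GRCm38.p6) of the 250 bases before the start was searched for the TCF/LEF core word CTTTGNN, where each N is A or T, on both strands. Windows were matched for 3 of the 7 genes and are shown 5′ to 3′ on the gene's strand, with a match in capitals. They are chr2:94406457-94406706 on the plus strand, chr14:48446102-48446351 on the plus strand and chr2:77946357-77946606 on the minus strand.
2810002D19Rik: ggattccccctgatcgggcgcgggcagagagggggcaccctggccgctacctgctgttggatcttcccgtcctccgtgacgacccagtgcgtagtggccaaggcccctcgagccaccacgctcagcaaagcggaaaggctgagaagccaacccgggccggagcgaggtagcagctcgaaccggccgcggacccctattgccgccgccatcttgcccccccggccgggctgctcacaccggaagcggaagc
6720456H20Rik: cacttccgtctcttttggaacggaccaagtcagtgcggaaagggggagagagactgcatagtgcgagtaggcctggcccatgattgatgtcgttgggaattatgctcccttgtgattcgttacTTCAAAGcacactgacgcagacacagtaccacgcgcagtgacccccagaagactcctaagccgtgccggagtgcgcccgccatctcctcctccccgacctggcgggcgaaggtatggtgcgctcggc
Cwc22: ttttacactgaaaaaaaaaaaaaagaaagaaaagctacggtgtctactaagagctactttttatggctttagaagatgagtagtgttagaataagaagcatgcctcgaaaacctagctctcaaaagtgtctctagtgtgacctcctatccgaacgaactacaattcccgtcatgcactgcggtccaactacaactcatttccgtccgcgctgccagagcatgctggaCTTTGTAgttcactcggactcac
GENCODE M21 puts the first base of these genes elsewhere, at 94406151, 48446124 and 77946375, so that all 250 bases of the 2810002D19Rik window, 228 of the 6720456H20Rik window with its match, and the 19 of the Cwc22 window nearest the start lie inside its gene spans. The 6720456H20Rik window held 1 match, in reverse orientation, whose first base lay 127 bases before the start. The Cwc22 window held 1 match beginning 23 bases before the start, and the 2810002D19Rik window held 0. Of all 32851 promoter windows of this length, 14.8% held at least 1 match, and a match describes the letters only.

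Gm6277 shares its chromosome with Apc. The deposited table gives it chr18:11821088-11945627, the same locus as Cables1 and Mir1901, whereas GENCODE M21 places it at chr18:11820671-11840869 on the minus strand. Its distance from Apc is 22.3 Mb by the table and 22.4 Mb by GENCODE, and the neighbours given for it were counted from the span of the table. Gm10635, at chr9:79444037-79519302, shares its chromosome with Ctnnb1 at a distance of 41.4 Mb. These 2 genes are therefore distant from a floxed gene but not on another chromosome. Cables1, on the strand opposite Gm6277, was at a mean of 6.67 FPKM. The library preparation was stranded, but whether strand was used in making the values is not given in the sources used here, so reads of Gm6277 and Cables1 may not have been separated.

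Wwox stood far higher in the double line than in any other genotype. In APC/β-cat cKO its level was 33.6, 32.1, 31.2 and 34.99 FPKM in replicates 1 to 4. In Control it was 10.3, 11.2, 11.7 and 10.95 FPKM. It was 9.36, 10.8, 11.1 and 8.82 FPKM in APC cKO and 9.37, 10.2, 10.4 and 9.10 FPKM in β-cat cOE. The lowest library of the double line thus lay far above the highest of the other 12, which was at 11.7 FPKM. The means were 32.97 ± 1.67 FPKM (SD, n = 4) in APC/β-cat cKO and 11.04 ± 0.597 FPKM (SD, n = 4) in Control, a ratio of 2.99. On the log2(FPKM + 0.1) scale the change against Control was 1.57 (SE 0.077). Against the double line it was -1.71 in APC cKO and -1.75 in β-cat cOE, with the same SE. Between Control, APC cKO and β-cat cOE the levels overlapped, and the change against Control was -0.14 in APC cKO and -0.18 in β-cat cOE. Of the marker lists, that of oligodendrocytes summed to 835 to 936 FPKM in APC/β-cat cKO, 647 to 1004 in Control, 562 to 677 in APC cKO and 651 to 845 in β-cat cOE, and its part in the Wwox level was not tested.

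2810002D19Rik and 6720456H20Rik also stood highest in the double line, by smaller ratios. 2810002D19Rik was at 2.87, 2.42, 3.38 and 3.03 FPKM in APC/β-cat cKO and at 1.45, 1.27, 1.38 and 1.17 FPKM in Control. It spanned 1.05 to 1.88 FPKM in APC cKO and 1.51 to 2.02 in β-cat cOE, so the double line overlapped no other genotype. β-cat cOE also lay above Control without overlap, and APC cKO overlapped both. The log2 change of 2810002D19Rik against Control was 1.09 (SE 0.163) in the double line, a ratio of means of 2.22. In β-cat cOE it was 0.33. With a pseudocount of 1 these changes became 0.76 and 0.21, and that of APC cKO against the double line went from -0.98 to -0.68.

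6720456H20Rik, that is Tmem260, was at 5.11, 3.48, 3.33 and 4.48 FPKM in APC/β-cat cKO. In Control it was at 2.26, 1.92, 1.99 and 1.94 FPKM, and in APC cKO it spanned 2.002 to 2.57 FPKM. In β-cat cOE replicate 2 stood apart at 3.67 FPKM, while the other 3 libraries were at 2.07, 2.25 and 2.07. That single library lay above the 2 lowest libraries of the double line, so these genotypes overlapped. The change of 6720456H20Rik in APC/β-cat cKO against Control was 0.96 (SE 0.175) on the log2 scale, a ratio of means of 2.02.

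Fut10 differed between the 2 lines that lack APC. It was at 2.34, 3.26, 3.61 and 3.24 FPKM in APC/β-cat cKO. In APC cKO it was at 0.855, 0.563, 0.657 and 0.898 FPKM. In β-cat cOE it was at 2.57, 2.32, 2.16 and 2.20 FPKM. Control lay between, at 0.998, 0.8005, 1.86 and 1.30 FPKM, overlapping APC cKO but below every library of the other 2 lines. The mean in APC/β-cat cKO was 4.19 times that in APC cKO, with a fitted log2 change of -1.93 (SE 0.212) for APC cKO against the double line. Against Control the change of Fut10 was 1.31 in APC/β-cat cKO, 0.91 in β-cat cOE and -0.63 in APC cKO. Because Fut10 is a low-level gene, a pseudocount of 1 in place of 0.1 reduced the change between APC cKO and the double line to -1.23. That between APC cKO and β-cat cOE went from -1.53 to -0.93. Against Control the changes became 0.89 in APC/β-cat cKO, 0.59 in β-cat cOE and -0.34 in APC cKO.

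**Figure D1:**
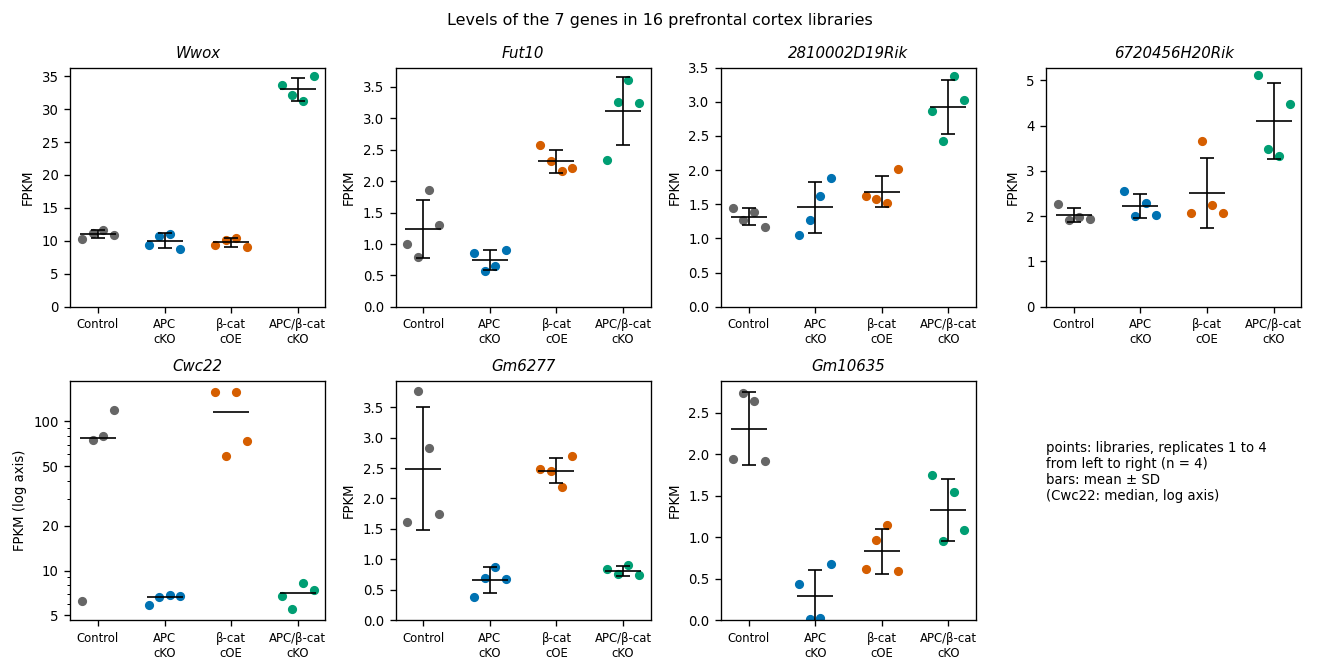
Level of each gene in FPKM (vertical axes, linear from 0 except the log axis of Cwc22) in the 4 libraries of each genotype. Points are replicates 1 to 4 from left to right and bars give the mean ± SD (n = 4), or the median for Cwc22. Wwox sits at 31.2 to 34.99 FPKM in APC/β-cat cKO and at 8.82 to 11.7 elsewhere, and Control replicate 1 sits at 6.20 FPKM for Cwc22, below the other 3 Controls.

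Cwc22 fell into separate high and low levels rather than a continuous range. It was at 158, 58.5, 158 and 73.7 FPKM in β-cat cOE. In Control it was at 75.3, 80.1 and 119 FPKM in replicates 2 to 4 but at 6.20 in replicate 1. In APC cKO it spanned 5.85 to 6.82 FPKM and in APC/β-cat cKO 5.51 to 8.30. Thus 9 libraries lay at 5.51 to 8.30 FPKM and 7 at 58.5 to 158, with none between and a ratio of 7.05 across the gap. Both lines that carry APC fl/fl were wholly at the low level, and β-cat cOE wholly at the high level. Control replicate 1 was the 1 library that did not share the level of its genotype. The 2 female libraries were both at the low level, together with 7 male libraries.

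The size of each Cwc22 change against Control therefore depended on Control replicate 1. With it the Control mean was 70.1 ± 46.9 FPKM (SD, n = 4), and without it 91.4 ± 23.9 FPKM (SD, n = 3). The log2 change of Cwc22 was -2.81 (SE 0.649) in APC cKO with that library and -3.76 without it. In APC/β-cat cKO it was -2.72 with it and -3.67 without it. In β-cat cOE it was 1.14 with it and 0.19 without it, and the β-cat cOE levels overlapped those of the remaining Controls. The comparison that uses no Control, APC cKO against β-cat cOE, gave -3.95 (SE 0.649), a 17.2-fold ratio of means. Reads from near-identical copies of Cwc22 may be split or pooled by the authors' counting, so its level is uncertain as that of a single gene.

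Gm6277 was low in the same 2 lines as Cwc22. This antisense RNA was at 0.373, 0.691, 0.880 and 0.674 FPKM in APC cKO and at 0.839, 0.754, 0.900 and 0.734 FPKM in APC/β-cat cKO. It was at 2.49, 2.45, 2.19 and 2.69 FPKM in β-cat cOE. Control was the most variable genotype, at 1.61, 3.76, 2.82 and 1.75 FPKM, with all 4 libraries above both APC fl/fl lines. The log2 change of Gm6277 against Control was -1.74 (SE 0.246) in APC cKO and -1.43 in APC/β-cat cKO, and these became -1.04 and -0.90 with a pseudocount of 1. Unlike Cwc22, Gm6277 in Control replicate 1 stayed above both APC fl/fl lines, although it was the lowest of the Controls. The overlapping gene Cables1 spanned 5.22 to 7.47 FPKM in APC cKO and 4.96 to 7.59 in Control.

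Gm10635 was highest in Control and lowest in APC cKO. It was at 1.95, 2.73, 2.64 and 1.91 FPKM in Control. In APC cKO it was at 0.431, 0.0159, 0.0242 and 0.671 FPKM, so 2 of these libraries were near 0. It spanned 0.588 to 1.15 FPKM in β-cat cOE and 0.957 to 1.75 in APC/β-cat cKO. Every mutant library was below every Control, while APC/β-cat cKO overlapped β-cat cOE and β-cat cOE overlapped APC cKO. The log2 change of Gm10635 in APC cKO against Control was -3.10 (SE 0.493), but with a pseudocount of 1 it was -1.39, because the levels near 0 weigh more with the smaller pseudocount. Against Control it was -1.40 in β-cat cOE and -0.77 in APC/β-cat cKO, or -0.86 and -0.51 with the larger pseudocount.

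**Figure D2:**
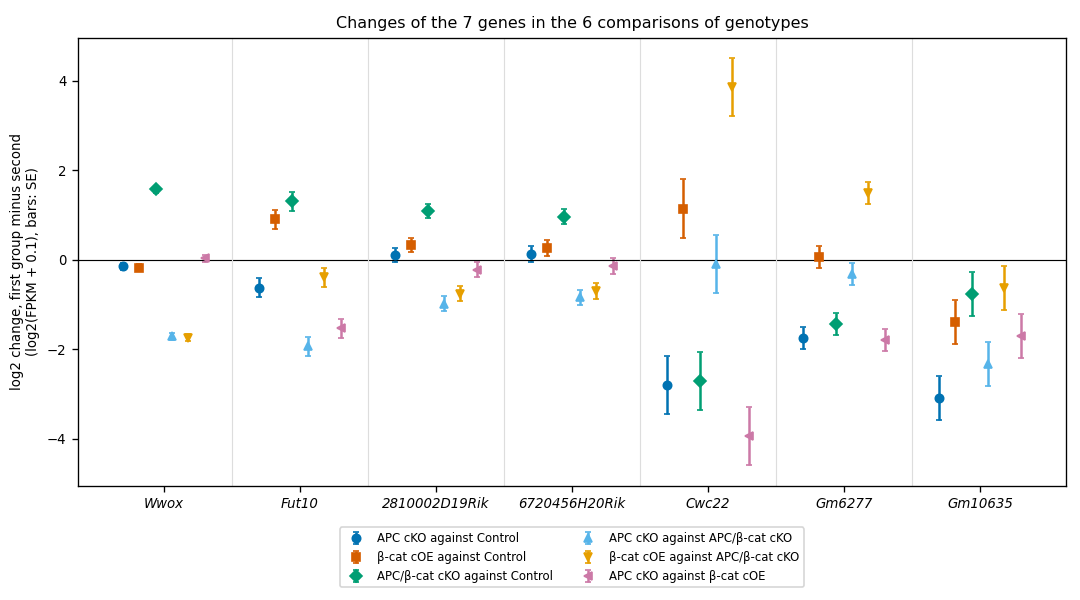
Fitted log2 change of each gene (vertical axis, log2(FPKM + 0.1), first group minus second) in the 6 comparisons of genotypes, with bars for the standard error (n = 4 per genotype). Wwox, 2810002D19Rik and 6720456H20Rik differ mainly where APC/β-cat cKO is compared, and the largest fitted changes are those of Cwc22 between β-cat cOE and the 2 APC fl/fl lines, -3.95 and 3.86.

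Counted over the 7 genes, the 4 libraries of each genotype did not overlap for 2 genes in APC cKO against Control, where 5.47% of all genes tested did not overlap. For β-cat cOE against Control the count was 3, beside 3.08% of all genes. It was 6 for APC/β-cat cKO against Control, where the background was 5.21%. Between lines it was 5 for APC cKO against APC/β-cat cKO (background 5.49%), 4 for β-cat cOE against APC/β-cat cKO (6.3%) and 3 for APC cKO against β-cat cOE (5.2%). The 7 genes were chosen on these comparisons, so the counts describe the choice. Cwc22 is the gene that overlapped in APC/β-cat cKO against Control, through Control replicate 1.

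The genes around the 7 were not used to choose them and were tested. With limma on all 13978 genes and a Benjamini-Hochberg adjusted p under 0.05, the share of genes called was 0.0429% in APC cKO against Control, 0.0143% in β-cat cOE against Control and 0.207% in APC/β-cat cKO against Control. It was 0.215% in APC cKO against APC/β-cat cKO, 0.229% in β-cat cOE against APC/β-cat cKO and 0.0429% in APC cKO against β-cat cOE. In that last comparison the title numbers were taken to pair the samples, from the data alone and with no label stating it. With them as a replicate block 1 gene was called in place of 6. No other library has the number of APC cKO replicate 4, so the block also takes that library out of the comparison. Within 1 Mb of the 7 genes, 51 other genes were tested, and 2 were called in at least 1 comparison, both beside Fut10, where 0.501% of all genes tested were called in at least 1. At an unadjusted p under 0.05 in at least 1 of the 6 comparisons the count was 29 of 51, against 33.4% of all genes tested. The share in each comparison alone is not given, so unadjusted counts in a single comparison stand without a background.

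Tti2, which encodes a subunit of the complex that stabilises large kinases of the PI3K-related family, lies 0.0186 Mb from Fut10 and differed in the same comparison. It was at 5.30, 4.46, 4.67 and 5.25 FPKM in APC cKO and at 6.62, 7.23, 7.37 and 8.32 FPKM in APC/β-cat cKO. These ranges did not overlap, and Control lay between at 5.31 to 5.97 FPKM. APC cKO was lower by a log2 change of -0.58 (SE 0.082, limma adjusted p = 0.00631). Against Control neither line passed, where the change of Tti2 was -0.18 in APC cKO (limma adjusted p = 0.487), whereas the double line differed by 0.40 (limma adjusted p = 0.0702). The deposited table gives Tti2 the same locus as Mak16, so reads of these 2 genes may not have been separated. Mak16 changed by -0.26 (SE 0.081, limma adjusted p = 0.281) in APC cKO against the double line and was not called. Dusp26, a dual-specificity phosphatase gene 0.0903 Mb from Fut10, spanned 28.4 to 32.4 FPKM in APC cKO and 38.4 to 51.7 in APC/β-cat cKO, a change of -0.55 (SE 0.107, limma adjusted p = 0.0481). In Control it spanned 25.8 to 38.9 FPKM. Against Control, Dusp26 changed by 0.55 in the double line (limma adjusted p = 0.0544) and by -0.008 in APC cKO (limma adjusted p = 0.988). Its call was lost under most other settings, and of the fits that left out 1 library it was kept only without Control replicate 3, Control replicate 4 or APC/β-cat cKO replicate 1, whereas Tti2 was called in every fit except that of only the 2 groups compared. The oligodendrocyte markers moved in the same comparison as Fut10, Tti2 and Dusp26, summing to 562 to 677 FPKM in APC cKO and 835 to 936 in APC/β-cat cKO, with 5 of 5 at an unadjusted p under 0.05 and 0 called by limma, and their part in these differences was not tested. On the other side of Fut10 the nearest gene tested, Nrg1, changed by 0.24 (SE 0.296, limma adjusted p = 0.804).

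**Figure D3:**
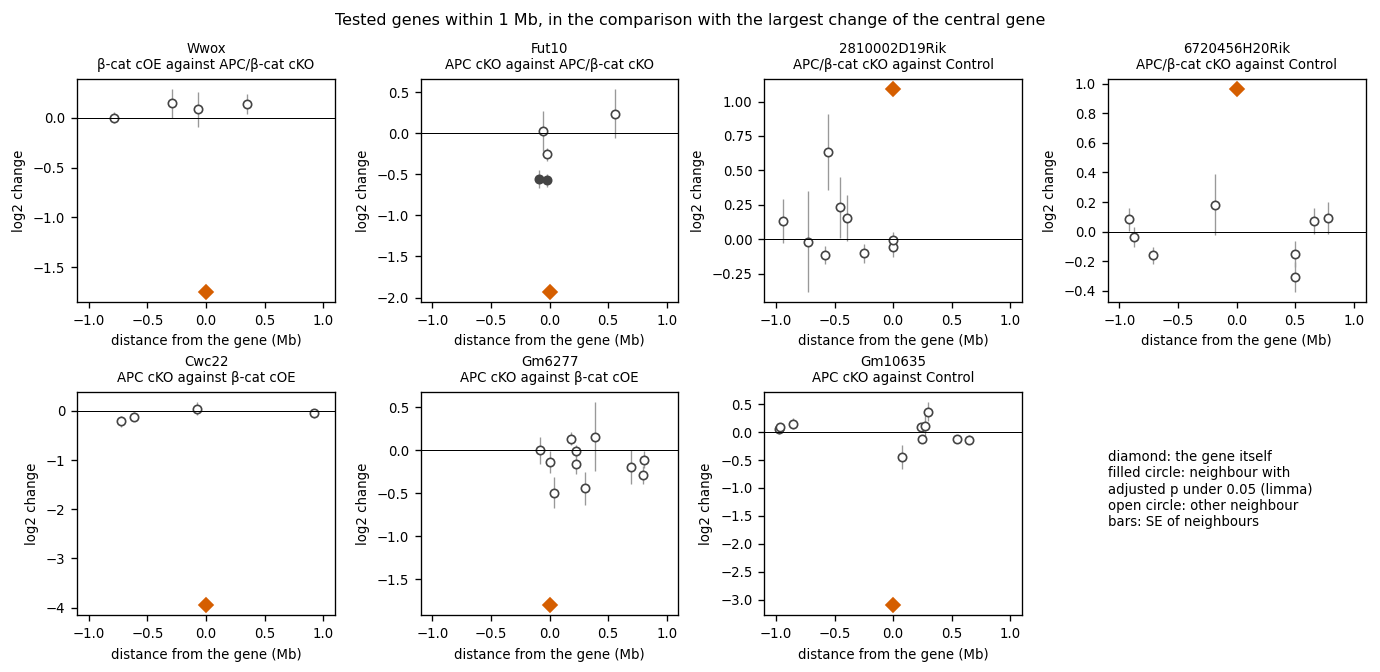
Log2 change of the tested genes within 1 Mb of each of the 7 genes (circles, bars SE) by distance in Mb, in the comparison where the central gene (diamond) changed most. Filled circles passed limma's adjusted p under 0.05, and only Tti2 at -0.58 and Dusp26 at -0.55, both beside Fut10, are filled.

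No neighbour of the other 6 genes was called by limma in any of the 6 comparisons. Around Wwox 4 genes were tested, and 2 had an unadjusted p under 0.05 in at least 1 comparison, Vat1l and Maf. When Wwox changed by -1.75 between β-cat cOE and the double line, these 4 neighbours changed by -0.002 to 0.14. Cwc22 had 4 neighbours, 2 of them at an unadjusted p under 0.05, and when it changed by -3.95 they changed by -0.21 to 0.04. The nearest, Zfp385b at 0.0788 Mb, changed by 0.04 (SE 0.132, limma adjusted p = 0.984) there.

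By the spans of the deposited table, 2810002D19Rik lies between Ttc17 and Api5, 18 bases from the former and 47 bases from the latter. GENCODE M21 starts it at 94406151, and by that start it would overlap Ttc17, which runs to 94406689 in the table. In the double line against Control, where 2810002D19Rik was higher by 1.09, Ttc17 changed by -0.05 (SE 0.078, limma adjusted p = 0.786). Api5, which encodes an apoptosis inhibitor, changed by -0.003 (SE 0.058, limma adjusted p = 0.990). Over all 9 of its neighbours, 4 had an unadjusted p under 0.05 in at least 1 comparison. Near 6720456H20Rik 4 of 8 did so, and the neighbours changed by -0.31 to 0.18 in APC/β-cat cKO against Control.

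For Gm6277, 7 of 11 neighbours had an unadjusted p under 0.05 in at least 1 comparison, and 6 of 10 for Gm10635. Cables1 changed by -0.12 (SE 0.128, limma adjusted p = 0.774) in APC cKO against Control, where Gm6277 changed by -1.74. The nearest gene to Gm10635, the collagen gene Col12a1, changed by -0.44 (SE 0.214, limma adjusted p = 0.512) in APC cKO against Control, where Gm10635 changed by -3.10.

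Over the 16 libraries, the genes most like each member were ranked by Pearson r of log2(FPKM + 0.1). These values are descriptions, since libraries of 1 genotype share that genotype, and r was therefore also taken on deviations from genotype means. For Wwox the top genes were Kctd2 (r = 0.88), Tcap (r = 0.87) and H2-T9 (r = 0.86). Wwox falls into 2 separate levels, and over the 12 libraries outside the double line r was 0.36, 0.52 and 0.51 for these genes. Kctd2, on chromosome 11, was at 41.8 to 47.3 FPKM in the double line and 34.1 to 41.7 elsewhere, and within genotypes its r with Wwox was 0.03. H2-T9 belongs to a family of near-identical class I genes and was listed at 0 in 4 libraries, so its level is uncertain.

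Fut10 was most like its neighbour Tti2 (r = 0.92, and 0.67 within genotypes), then Agpat5 (r = 0.87), 12.3 Mb away on the same chromosome, and Phyh (r = 0.84) on chromosome 2. Among the genes most like 2810002D19Rik were Dusp26 (r = 0.85) and S100a13 (r = 0.84). For 6720456H20Rik the top genes Ppp1r3e (r = 0.90), Myh7 (r = 0.88) and Osgep (r = 0.85) all lay on chromosome 14, at 6.36, 6.45 and 2.40 Mb. Ppp1r3e shared the high library of β-cat cOE, with 2.88 FPKM in replicate 2 against 0.973 to 1.58 in the other 3. In the double line it was highest in replicate 1, at 4.51 FPKM, as was 6720456H20Rik.

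The genes most like Cwc22 were Il1f9, which encodes the cytokine interleukin-36γ, Tuba1c, an α-tubulin gene, and Pldn, a subunit of a complex that forms lysosome-related organelles. All 3 were low in Control replicate 1, which was at 0.937 FPKM for Il1f9, 0.420 for Tuba1c and 12.3 for Pldn. That library was among those used to rank them, so this follows in part from the choice. The other 3 Controls were at 4.59, 4.34 and 5.67 FPKM for Il1f9. Because the libraries form 2 levels of Cwc22, r was taken within each. Over the 7 libraries with high Cwc22 it was 0.96 for Il1f9, -0.10 for Tuba1c and 0.68 for Pldn. Over the 9 with low Cwc22 it was 0.33, -0.21 and 0.53. In β-cat cOE, Il1f9 was at 7.25, 2.67, 7.84 and 4.05 FPKM, so it was high in replicates 1 and 3 and lower in 2 and 4, as Cwc22 was. Il1f9 lies 53.7 Mb from Cwc22 on chromosome 2, and Tuba1c lies on chromosome 15. Tubulin genes are similar in sequence, so the level of Tuba1c is uncertain.

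**Figure D4:**
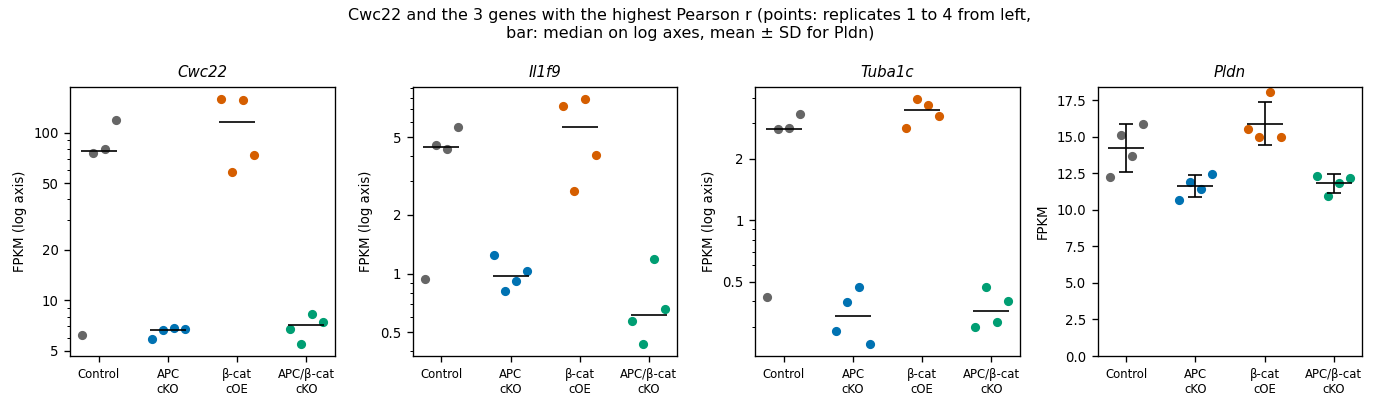
Levels in FPKM of Cwc22 and of the 3 genes with the highest Pearson r with it, in the 4 libraries of each genotype (log axes except Pldn, bars give the median, or the mean ± SD for Pldn). Control replicate 1, the left point of Control and among the libraries used to rank these genes, is low in all 4 panels, at 6.20 FPKM for Cwc22 and 0.937 for Il1f9.

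Gm6277 was most like Tuba1c (r = 0.89), Cwc22 (r = 0.86) and Rgs5 (r = 0.86), a gene of pericytes, and within genotypes these values were 0.45, 0.35 and 0.44. Gm10635 was most like Aph1b (r = 0.82), a subunit gene of γ-secretase 12.6 Mb away on chromosome 9, with r = 0.84 within genotypes. Both values include the 2 APC cKO libraries where Gm10635 was near 0. The Spearman correlation with Aph1b, which uses ranks only, was 0.55. In APC cKO, Aph1b was at 7.59, 4.77, 4.90 and 8.73 FPKM, so the 2 libraries with the least Gm10635, replicates 2 and 3, were also those with the least Aph1b. C920006O11Rik, 1.27 Mb from Gm10635 (r = 0.81, Spearman 0.60), was also lowest in replicates 2 and 3 of APC cKO, although replicate 3 was the lower there, at 1.01, 0.248, 0.0690 and 1.11 FPKM. Map3k4, on chromosome 17, had an r of 0.81 with Gm10635.

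Among the 7 genes themselves, Wwox, 2810002D19Rik and 6720456H20Rik had pairwise r of 0.83, 0.82 and 0.73 over the 16 libraries. Within genotypes these became -0.24, 0.26 and -0.21 and did not keep their size. Fut10 and 2810002D19Rik had r = 0.71, and 0.10 within genotypes.

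The pathways of the 3 protein-coding genes with known partners were read from lists, leaving out the 7 genes. Of 22 WWOX partners 19 were tested. In APC/β-cat cKO against Control, where Wwox was 2.99 times higher, limma called 1 higher and 0 lower, beside 0.207% of all genes tested. The median log2 change of the 19 was -0.06, beside 0.003 for all genes tested. The called gene was Jun, which encodes a subunit of the AP-1 transcription factor and whose protein binds WWOX. Jun was at 19.4, 20.2, 19.95 and 18.6 FPKM in APC/β-cat cKO and 14.1, 14.2, 13.5 and 15.03 in Control, without overlap, and its change was 0.46 (SE 0.080, limma adjusted p = 0.0245). Without Control replicate 2 or 3, or without any 1 library of the double line, Jun was no longer called. Jun was also above the Control mean in APC cKO, by 0.36 (limma adjusted p = 0.204), and in β-cat cOE, by 0.31 (limma adjusted p = 0.946). Neither passed, although β-cat cOE, at 17.2 to 18.4 FPKM, did not overlap Control. Against the double line, Jun changed by -0.09 in APC cKO (limma adjusted p = 0.690), with overlap. In β-cat cOE it changed by -0.15 (limma adjusted p = 0.455), without overlap. Wwox changed by -1.71 and -1.75 in these 2 comparisons.

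Of the other WWOX partners, Erbb4, a neuregulin receptor, had the lowest change in the double line, -0.79 (SE 0.355, limma adjusted p = 0.334). Runx2 changed by -0.40 (limma adjusted p = 0.364) and Wbp1 by 0.20 (limma adjusted p = 0.423). In the double line against Control 4 of the 19 partners, Jun and Erbb4 among them, had an unadjusted p under 0.05. In the other 5 comparisons limma called 0 of the 19, with 0 to 2 at an unadjusted p under 0.05. In at least 1 of the 6 comparisons 5 of 19 had such a p, against 33.4% of all genes tested.

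Of 17 fucosylation genes 13 were tested, and limma called 0 in any comparison, beside 0.501% of all genes tested called in at least 1. In each comparison 0 to 4 had an unadjusted p under 0.05. In at least 1 comparison 6 of 13 did, against 33.4% of all genes tested. The median change of the 13 in APC cKO against the double line was -0.04, where Fut10 changed by -1.93. In the double line against Control, Fut9, which makes Lewis X glycans in brain, changed by -0.45 (SE 0.159, limma adjusted p = 0.278), and Fpgt by -0.08. Fuca2, a fucosidase gene, changed by 0.28 (SE 0.096, limma adjusted p = 0.278), and Slc35c2 by 0.25 (limma adjusted p = 0.219).

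All 33 genes of the exon junction complex and the CWC22 part of the spliceosome were tested. Limma called 0 in any comparison, beside 0.501% of all genes tested called in at least 1. In each comparison 0 to 5 had an unadjusted p under 0.05. In at least 1 comparison 5 of 33 did, against 33.4% of all genes tested. Where Cwc22 changed by -3.95, in APC cKO against β-cat cOE, the changes of the 33 ran from -0.18 to 0.12 with a median of 0.02. In the double line against Control, where Cwc22 changed by -2.72, Magoh, a core subunit of the complex, changed by 0.19 (SE 0.076, limma adjusted p = 0.291) and Xab2 by 0.21 (limma adjusted p = 0.301). Prpf8 changed by -0.15 and Pnn by -0.12 there, and neither passed.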

How the data were processed

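Polyadenylated RNA from the prefrontal cortex of 16 mice, 4 per genotype, was prepared with a stranded kit and sequenced. The tools credited in the submitters' processing notes are bcl2fastq, TopHat2 2.0.10 and Cuffdiff 2.1.1, with the mm10 genome. The values deposited by the authors are FPKM on a log scale, taken here as log2(FPKM + 1), the base not being given in the sources used here. With base 2, the product of FPKM and transcript length in kilobases (20887 genes matched to GENCODE M21) summed to 592239 to 627186 per library. A natural log would give 5279898 to 5871089, above what FPKM scaling allows. The design had assumed plain FPKM, to which all values were converted before the planned test. No counts are held in the table, so depth is unknown and no interval for counting error is given.

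The 7 genes, the lists and the tests were chosen with earlier results of these data known. Differences were fitted on log2(FPKM + 0.1) in limma 3.58.1 (R 4.3.3, functions lmFit, contrasts.fit and eBayes, trended), for genes averaging 0.5 FPKM or more. The 4 genotypes shared 1 estimate of spread with 12 residual degrees of freedom. P-values were Benjamini-Hochberg adjusted over the 13978 genes within each of 6 comparisons, of which 3 share the Control libraries. The fit was tested on simulated data. Deviations from genotype means of same-numbered libraries passed r = 0.1 in all 3 pairs of APC cKO and β-cat cOE (0.11 to 0.32), so the title numbers were taken to pair the samples in that comparison, from the data alone, whereas in every other comparison at least 1 pair did not pass. APC cKO replicate 4 shares its number with no other library, so it had no pair. The r of libraries with different numbers is not given here. No label states that samples of a genotype came from separate litters.

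Genes named beside the 7 were the nearest tested gene on each side, every called neighbour within 1 Mb, every called list gene, the 3 genes with the highest Pearson r with each, Apc and Ctnnb1, and per list the 2 largest rises and falls in the double line against Control. The values of 1 gene that this rule names are not reported here. Alternatives were a pseudocount of 1, other filters, scaling by quantiles or by median of ratios, an untrended fit, a sex covariate, a replicate block, only the groups compared, windows of 0.5 and 2 Mb, an adjusted p under 0.01 and each library left out. Python 3.11.15 with pandas 2.3.3, with numpy 2.4.6 and with matplotlib 3.10.9 made the tables and plots.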

Additional observations from a re-analysis of the deposited data

Results flagged for a closer look

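The 4 libraries of a genotype were read for 1 library standing apart, by its gap to the nearest library as a share of the group's range, both on the log2(FPKM + 0.1) scale. This was done for the 7 genes, their named neighbours, the named list genes, the genes most like or most opposite to each, Apc and Ctnnb1. The share passed Dixon's critical ratio in 18 of 240 groups of 4, where chance gives about 1 in 20. Many of these genes were chosen by their levels or r in these same libraries, so the count is a description and no test. Among the 7 genes, 6720456H20Rik in β-cat cOE had a ratio of 0.856, with replicate 2 at 3.67 FPKM and the others at 2.07 to 2.25. Cwc22 in Control had a ratio of 0.845, with replicate 1 at 6.20 FPKM and the others at 75.3 to 119. Cwc22 in APC cKO had a ratio of 0.832, with replicate 1 at 5.85 FPKM and the others at 6.65 to 6.82, all within the low level.

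Among neighbours and list genes, Zfp385b in APC/β-cat cKO had a ratio of 0.892 (replicate 2, 13.5 FPKM) and Slc17a5 in APC/β-cat cKO 0.871 (replicate 1, 9.76 FPKM). Cables1, which overlaps Gm6277, had 0.867 in Control (replicate 4, 4.96 FPKM). Dusp26 had 0.893 in β-cat cOE (replicate 3, 32.9 FPKM), and Jun had 0.957 in β-cat cOE (replicate 4, 18.4 FPKM). Erbb4 had 0.834 in β-cat cOE (replicate 4, 3.93 FPKM).

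Control replicate 1 stood apart for 2 of the genes most like Cwc22, with a ratio of 0.848 for Il1f9 (0.937 FPKM, the others at 4.34 to 5.67) and 0.915 for Tuba1c (0.420 FPKM, the others at 2.80 to 3.30). Both were ranked by r with Cwc22 over libraries that include it, so this follows in part from the choice. Control replicate 1 also stood apart for Klhl33, most opposite to 6720456H20Rik, with 0.852 (1.94 FPKM). H2-T9, among the genes most like Wwox, had 0.998 in APC cKO, where replicate 3 was at 2.64 FPKM and the others at 0 to 0.000652. S100a13 had 0.909 in APC/β-cat cKO (replicate 2, 30.9 FPKM) and Aph1b 0.923 in β-cat cOE (replicate 1, 8.25 FPKM). 2010315B03Rik, most opposite to Wwox, had 0.856 in β-cat cOE (replicate 3, 6.13 FPKM). Gins4, most opposite to Fut10 and 7.95 Mb from it, had 0.8396 in APC cKO (replicate 4, 16.3 FPKM) and 0.971 in APC/β-cat cKO (replicate 1, 16.3 FPKM).

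The lines APC cKO and APC/β-cat cKO differed by limma's test of 1 line against the other for both called neighbours of Fut10. The log2 difference of APC cKO from APC/β-cat cKO was -0.55 for Dusp26 and -0.58 for Tti2. Neither gene passed in either line against Control, and the call of Dusp26 was lost under most other settings.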

How the results depend on the processing

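The count of called neighbours was 2, Tti2 and Dusp26. It was 1 without a filter, with a mean of at least 2 FPKM, with quantile or median-of-ratios scaling, without a trend, with sex as a covariate or at an adjusted p under 0.01. It was 0 with only the 2 groups compared, 2 with a pseudocount of 1 or a window of 0.5 Mb, and 3 with a window of 2 Mb, which adds Trp53i11, 1.20 Mb from 2810002D19Rik. Leaving out each library gave 1 to 2. The count of called list genes, Jun, was 1 and became 0 at an adjusted p under 0.01, and leaving out each library gave 0 to 1. Deviations of same-numbered libraries had r of -0.22 to 0.32 and passed 0.1 in 4 of 21 pairs, 3 of them the pairs of APC cKO and β-cat cOE. In that comparison a pairing was inferred from these r alone, and no label states one. In the other comparisons the samples share only a number. With that number as a replicate block, 1 neighbour and 0 list genes were called, since Dusp26 and Jun, called in other comparisons, were lost. In APC cKO against β-cat cOE 0 neighbours and 0 list genes were called with or without the block, while over all genes the count was 1 with it and 6 without. APC cKO replicate 4 shares its number with no other library, so the block also takes it out of the comparisons. The cause of the losses with the block was not tested.

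The 42 changes of the 7 genes were recomputed as 984 values, of which 16 moved by at least 1 SD, all with a pseudocount of 1 or without Control replicate 1. For 26 changes none moved. Another sign arose in 10 values, in 5 changes reported between -0.14 and 0.11, among them Cwc22 in APC cKO against APC/β-cat cKO, which was -0.09 and became 0.41 with sex as a covariate. Depth is unknown, so the precision of the lowest levels, those of Gm10635 in APC cKO, is not known.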

Other observations

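These genes were picked after their values were seen. Those most opposite to a gene were found by r over these same libraries, so library patterns they share with it follow in part from that choice. The gene most opposite to Wwox was 2010315B03Rik on chromosome 9, at 2.74, 2.26, 2.85 and 2.35 FPKM in APC/β-cat cKO and at 6.03 to 7.87 FPKM in the 12 other libraries, again 2 separate levels. Over those 12 libraries its r with Wwox was -0.44. Lcp1, which encodes the actin-bundling protein L-plastin of blood and microglial cells, was most opposite to Cwc22. It was at 3.30, 1.68, 1.68 and 1.90 FPKM in Control, so replicate 1 lay with APC cKO (2.79 to 3.32 FPKM) and APC/β-cat cKO (2.58 to 3.11 FPKM), while β-cat cOE was at 1.77 to 2.17 FPKM. Pcdhga11, a clustered protocadherin gene 25.0 Mb from Gm6277 on chromosome 18, was most opposite to Gm6277. It was at 6.89 FPKM in Control replicate 1 and 1.39, 1.97 and 4.504 in the other Controls, against 5.52 to 7.70 in the APC fl/fl lines. Klhl33, 2.38 Mb from 6720456H20Rik, was most opposite to it (r = -0.92, n = 16) and was lowest in β-cat cOE in replicate 2, at 1.58 FPKM, the library where 6720456H20Rik was highest.

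Among the 20 genes with the largest absolute r with each gene, over 16 libraries that share genotypes, the number on its own chromosome was 0 for Wwox, where 5.20% of tested genes lie on that chromosome. It was 6 for Fut10 (5.20%), 1 for 2810002D19Rik (8.03%), 7 for 6720456H20Rik (3.36%), 7 for Cwc22 (8.03%), 9 for Gm6277 (2.85%) and 5 for Gm10635 (5.76%). The 7 around 6720456H20Rik all lay within 6.45 Mb of it. The 9 for Gm6277 include Apc and 6 clustered protocadherin genes.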
